A study of Homo sapiens with 4 samples.

Results

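The human genome has 4 vault RNA genes, VTRNA1-1 to VTRNA1-3 and VTRNA2-1, and 4 Y RNA genes, RNY1, RNY3, RNY4 and RNY5. They were examined in ChIP-seq of K562, a cell line derived from chronic myeloid leukemia. These 8 genes, of 59679 annotated genes on the assembled chromosomes, were chosen by their class and by the peaks seen at them in an earlier reading of the same lists, so the presence and height of a peak at each gene are given as a description without a test. Chromatin was precipitated with an antibody against the HA tag, from cells that overexpressed either HA-PHF6 or, as the control, the HA tag. PHF6 is a chromatin protein with plant homeodomain-like zinc fingers that is mutated in T-cell leukemia. The 4 libraries are titled IPHA and IPWT (ChIP) and inputHA and inputWT (their inputs), and the titles do not settle whether HA or WT stands for the cells with HA-PHF6. The libraries are therefore called by their labels, HA and WT. Each label has 1 ChIP library and 1 input, so no difference between them could be set against a spread between replicates, and every interval below covers counting error only. Both ChIP libraries carry their values as a peak list, made against the input of the same label.

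Vault RNAs are short noncoding RNAs named after the vault, a large cytoplasmic ribonucleoprotein particle that holds some of them. VTRNA2-1, also known as nc886, is a relative encoded apart from the others and is known as an imprinted locus and as an RNA that binds the kinase PKR. Y RNAs are short RNAs that bind the Ro60 and La proteins and are linked to RNA quality control and to the start of DNA replication. RNA polymerase III transcribes both families, but from different promoters. Vault RNA genes carry the internal promoter that tRNA genes also have, with an A box and a B box inside the transcribed sequence, which the factor TFIIIC binds. Y RNA genes are transcribed from elements upstream of the start, a distal element, a proximal sequence element and a TATA box, as are the genes of U6 and 7SK RNA. The comparison of the families sets internal against upstream promoters. The families also differ in chromosome and in the background at their peaks, so promoter type cannot be told apart from these.

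Positions are those of RefSeq on GRCh38.p14, whose chromosome names the peak lists use. The lists themselves state no build. All vault RNA genes lie on chromosome 5. VTRNA1-1 spans 140711276 to 140711373 (98 bp), VTRNA1-2 spans 140718926 to 140719013 (88 bp) and VTRNA1-3 spans 140726159 to 140726246 (88 bp), all inside the annotated long noncoding RNA gene LOC105378198. Their starts are 7650 and 7233 bp apart. VTRNA2-1 spans 136080491 to 136080598 (108 bp), 4630785 bp from VTRNA1-1. The Y RNA genes form a cluster on chromosome 7, with RNY5 at 148941488 to 148941571 (84 bp), RNY4 at 148963315 to 148963410 (96 bp), RNY3 at 148983755 to 148983856 (102 bp) and RNY1 at 148987136 to 148987248 (113 bp). RNY5 and RNY1 start 45648 bp apart. The gene table gives no strand.

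The sequence around the start of VTRNA1-1 is shown because it holds the summit of a peak and letters that match the core of an A box. RefSeq's promoter table has an entry for 0 of the 8 genes under their own names. The entry of LOC105378198, on the plus strand of GRCh38.p14, begins 250 bases before a start that is the same base as the first base of VTRNA1-1, and its last 50 bases are the first 50 bases of VTRNA1-1 if that gene is read on the same strand. The window spans chr5:140711026-140711325. Of its 300 bases, 157 lay inside the peak labelled HA, whose summit was at base 29 of the gene. Capitals mark the letters TNGCNNAG, the core of an A box, where N is any base.
LOC105378198 and VTRNA1-1, 5′ to 3′: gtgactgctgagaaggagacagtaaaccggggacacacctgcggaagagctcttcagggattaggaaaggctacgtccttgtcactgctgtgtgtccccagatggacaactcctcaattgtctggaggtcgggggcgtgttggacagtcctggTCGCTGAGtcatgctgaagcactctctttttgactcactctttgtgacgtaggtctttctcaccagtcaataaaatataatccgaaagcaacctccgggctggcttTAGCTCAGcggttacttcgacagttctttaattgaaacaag

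Counted from the start of VTRNA1-1 as base 1, these letters stood at bases 10 to 17, as TAGCTCAG, and also upstream from -97 to -90. They are not rare, since 43.0% of the 35116 promoter windows of this length hold them on either strand and 25.3% on the plus strand. The B box core GTTCNANNC had no match on either strand, and neither did the TATA box TATAAA, the proximal sequence element core ACCNTNA or the octamer ATTTGCAT. The shares of windows that hold these letters on either strand are 7.48%, 11.5%, 27.1% and 1.77%. The window ends at base 50 of the gene, so the rest of the transcribed part was not searched. The run TTTT, with which RNA polymerase III ends transcription, matched from -71 to -68 and, overlapping it, from -70 to -67, and its complement from -26 to -23, and 71.4% of the windows hold it. A match describes letters and no binding.

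In the list labelled HA, 4 of 4 vault RNA genes and 2 of 4 Y RNA genes had a peak that overlapped the gene or lay within 500 bp. In the list labelled WT, 1 of 4 vault RNA genes and 0 of 4 Y RNA genes had such a peak. By the same rule, 4.13% of the 8400 annotated genes of up to 300 bp had a peak labelled HA and 0.571% a peak labelled WT. Without the tRNA genes, these shares were 1.04% and 0.452%. All 7 peaks at the 8 genes overlapped their gene by at least 1 bp, a rule that 3.44% of the short genes met in the list labelled HA and 0.286% in that labelled WT. No peak fell between the edge of a gene and 500 bp, and the nearest beyond that limit began 3225 bp from RNY3 and was the peak of RNY1. The counts concern 4 genes of each kind in a single library, and those of VTRNA1 and of the Y RNAs are neighbours.

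A peak is described by its pileup, the number of ChIP tags (sequenced fragments, extended to the fragment length) that cover the summit, and by its fold enrichment, the pileup divided by the local background that the input predicts, after 1 is added to each. The list labelled HA held 12662 peaks from 16132466 tags, and that labelled WT 6874 peaks from 22257947 tags. The weakest peaks had 4 and 6 tags, and the medians over all peaks were 5 and 8 tags. The genome-wide background was 1.05 and 1.68 tags.

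Among the vault RNA genes, VTRNA1-3 had the highest pileup labelled HA, with 32 tags (95% Poisson interval 21.9 to 45.2). Its fold enrichment of 13.0 ranked 2 among all 12662 peaks, and its −log10 q, the significance that the peak caller adjusted for the whole genome, was 25.3. VTRNA1-2 had 27 tags (17.8 to 39.3), with a fold enrichment of 10.4 at a −log10 q of 18.2. The intervals of both genes overlap, so that their order cannot be told from counting error. VTRNA2-1, on its own far from the cluster, had 27 tags as well, with a fold enrichment of 7.95 at a −log10 q of 13.9. VTRNA1-1, the gene of an RNA known as a partner of the autophagy receptor p62, had the lowest of the vault pileups. It reached 16 tags (9.15 to 26.0), with a fold enrichment of 4.49 at a −log10 q of 3.49. By fold enrichment these peaks ranked 2 (VTRNA1-3), 16 (VTRNA1-2), 53 (VTRNA2-1) and 263 (VTRNA1-1) in the list labelled HA. The interval of VTRNA1-1 overlaps those of the other vault RNA genes.

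The Y RNA genes had lower values. RNY4 had 14 tags labelled HA (95% Poisson interval 7.65 to 23.5), with a fold enrichment of 2.96 at a −log10 q of 0.558. RNY1 had 10 tags (4.80 to 18.4), with a fold enrichment of 2.17 at a −log10 q of 0. RNY3 and RNY5 had no peak in either list. The Y RNA pileups lay below all vault RNA pileups, but the intervals of RNY4 and RNY1 overlap that of VTRNA1-1, that of RNY4 also overlaps those of the other vault RNA genes, and that of RNY1 those of VTRNA1-2 and VTRNA2-1. Of the peaks labelled HA, 66.8% had a lower fold enrichment than RNY4 and 1.57% a lower one than RNY1. With a q-value under 0.05, 4 of the vault RNA peaks and 0 of the Y RNA peaks labelled HA remained. By −log10 q among all 12662 peaks, VTRNA1-3 ranked 27, VTRNA1-2 64, VTRNA2-1 108 and VTRNA1-1 375. RNY4 ranked 1499 and RNY1 4563. The share of all peaks under that q-value was not computed, so both counts are descriptions.

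**Figure D1:**
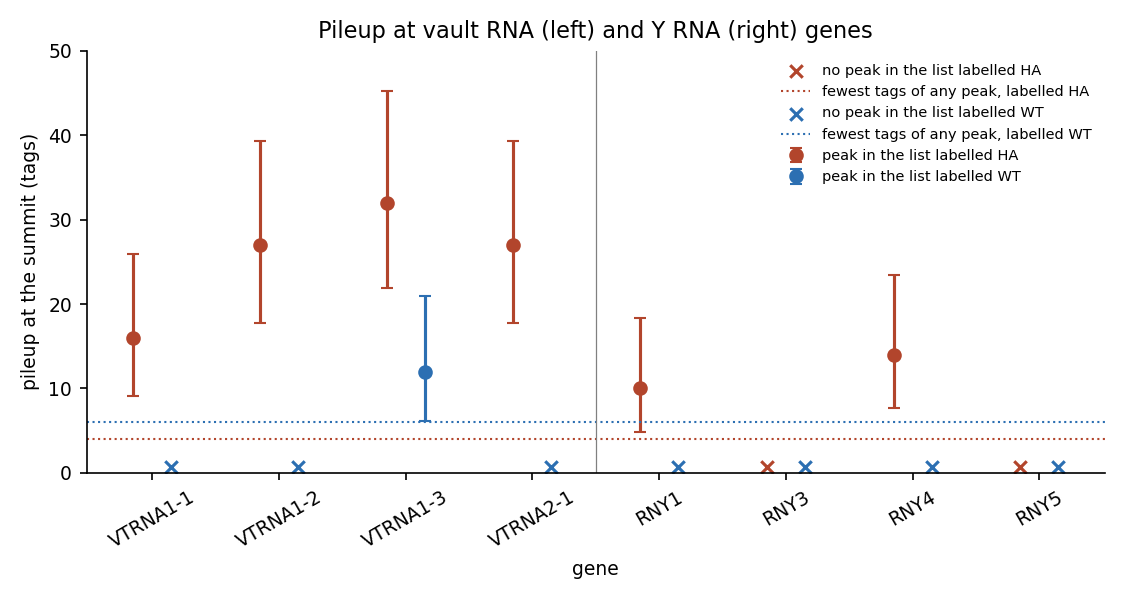
Pileup at the summit in tags (y axis) at each of the 8 genes (x axis), in the lists labelled HA (red) and WT (blue), with 95% Poisson intervals. A cross on the axis marks a gene without a peak, for which no pileup is known, and dotted lines mark the fewest tags of any peak, 4 labelled HA and 6 labelled WT. The vault RNA genes reached 16 to 32 tags and the Y RNA genes 10 and 14 in the list labelled HA, and VTRNA1-3 alone had a peak labelled WT, with 12 tags.

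The background, which is known only at the genes with a peak and was computed from the pileup and fold enrichment of those peaks, also differed between the families, and is given as a description. The background at the summit labelled HA was 1.54 tags at VTRNA1-3, 1.68 at VTRNA1-2, 2.52 at VTRNA2-1 and 2.79 at VTRNA1-1. It was 4.06 tags at both RNY1 and RNY4, which is 3.89 times the genome-wide level, against 1.47 to 2.67 times at the vault RNA genes. A high background lowers the fold enrichment and raises the number of tags that a call needs. At 4.06 tags, the cutoff on p of 0.005 required 10 tags, so that RNY1 had the smallest pileup that could be called there. At the vault RNA genes 6 to 8 tags were required. RNY3 and RNY5 could therefore have held up to 9 tags without a call at the background of their neighbours, and up to 3 tags at the genome-wide background. Set against the genome-wide background, the fold enrichment was 7.33 at RNY4 and 5.38 at RNY1, and 8.31 at VTRNA1-1, 13.7 at VTRNA1-2 and VTRNA2-1, and 16.1 at VTRNA1-3. The order of the families was kept, and the distance between RNY4 and VTRNA1-1 became small. The part of the background in the difference between the families was not tested otherwise.

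**Figure D2:**
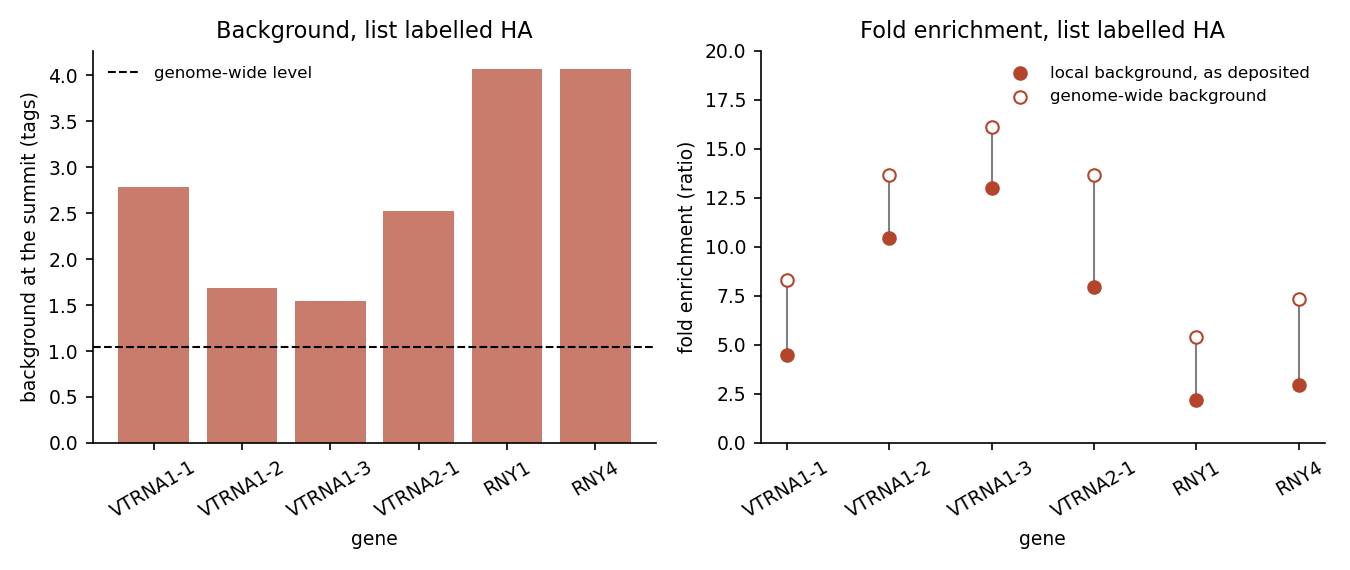
Left, background at the summit in tags for the 6 genes with a peak labelled HA, with the genome-wide level of 1.05 tags as a dashed line. Right, fold enrichment as deposited (filled) and against the genome-wide background (open). RNY1 and RNY4 have the highest background, 4.06 tags, and their fold enrichment rises from 2.17 and 2.96 to 5.38 and 7.33 when that background is replaced.

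VTRNA1-3 had a peak in both lists. The peak labelled WT had 12 tags (95% Poisson interval 6.20 to 21.0) at a background of 2.97 tags, with a fold enrichment of 3.28 at a −log10 q of 0.650. Per 10000000 tags, its pileup was 5.39 (2.79 to 9.42) labelled WT against 19.8 (13.6 to 28.0) labelled HA. This scaling uses the number of tags and not their extension, and the pileups were read at different summits. The gene was chosen with its peaks known, so the difference is a description and was not tested. It sets 1 library beside another and not the conditions. The peaks shared 230 bp. The summit labelled WT lay 75 bp from that labelled HA and 62 bp past the end of the gene, on the side of higher coordinates, whereas the summit labelled HA was inside the gene.

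For the other genes the depth of the library labelled WT was considered. With its tags and extension, each pileup labelled HA corresponds to 1.61 times as many tags in the library labelled WT at an equal enrichment. VTRNA1-2 and VTRNA2-1 would each then have 43.4 tags (28.6 to 63.1 from the counting interval) and VTRNA1-1 25.7 tags (14.7 to 41.7). With the background scaled likewise, a call would need 8, 10 and 11 tags, which is below these intervals. RNY4 would have 22.5 tags (12.3 to 37.7) and RNY1 16.1 tags (7.70 to 29.5), and a call would need 14 tags, which is within both intervals. The missing calls of the Y RNA genes labelled WT thus do not tell an equal from a lower level. The true background labelled WT at genes without a peak was not known here, and the estimate rests on the background labelled HA. At VTRNA1-3, where both are known, the scaled background was 2.48 tags against 2.97 labelled WT. A call there needed 7 tags by the scaled background and 8 by that labelled WT. The pileups that were scaled are also those of the peaks by which the genes were chosen. A difference between the labels at these genes was therefore not tested.

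All 6 summits labelled HA lay inside the gene, between 10.5 bp (VTRNA2-1) and 37.5 bp (RNY4) from its middle. In chromosome coordinates, the summits stood above the middle by 26.5 bp at VTRNA1-2, 30.5 bp at VTRNA1-3 and 16.0 bp at RNY1, and below it by 20.5 bp at VTRNA1-1, 10.5 bp at VTRNA2-1 and 37.5 bp at RNY4. The peak of RNY4 was off centre. Its summit lay 10 bp inside the lower edge of the gene, and the peak reached 108 bp past that edge but 13 bp past the other. With tags extended to 201 bp and genes of 84 to 113 bp, the summits cannot separate a promoter just upstream from the gene itself. Each peak labelled HA covered its whole gene. The peaks were 217 bp (RNY4), 241 bp (RNY1), 247 bp (VTRNA1-1), 321 bp (VTRNA1-3), 337 bp (VTRNA1-2) and 407 bp (VTRNA2-1) long, and the median over that list was 214 bp.

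**Figure D3:**
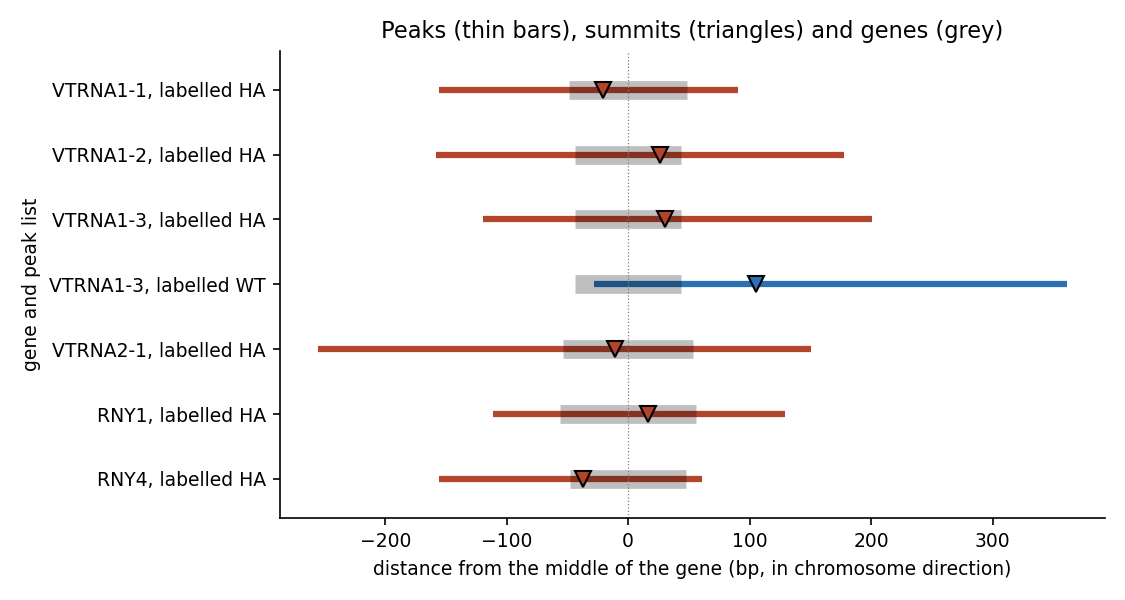
Extent of the 7 peaks (thin bars), their summits (triangles) and the genes (grey bars), as distance in bp from the middle of each gene in the direction of chromosome coordinates. The 6 summits labelled HA (red) lie within the gene, and the summit labelled WT at VTRNA1-3 (blue) lies 62 bp past the gene's end.

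The surroundings of the genes held few other peaks. Within 50 kb on either side of the VTRNA1 cluster there were 3 peaks labelled HA and 1 labelled WT, all at the vault RNA genes, so LOC105378198 was covered at these genes and nowhere else in that window. Around VTRNA2-1 there was 1 further peak labelled HA, of 4 tags, at a place without an annotated gene, and 0 peaks labelled WT. Around the Y RNA cluster the 2 peaks labelled HA were those of RNY4 and RNY1, and the 1 peak labelled WT was in PDIA4, which encodes a protein disulfide isomerase of the endoplasmic reticulum, with 10 tags and a fold enrichment of 2.41. The nearest peak labelled WT was 39941 bp from RNY1 and 98939 bp from VTRNA2-1.

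RefSeq lists 75 Y RNA pseudogenes and 2 vault RNA pseudogenes on the assembled chromosomes. In either list, 0 of them had a peak that overlapped the gene or lay within 500 bp. At the shares of 1.04% labelled HA and 0.452% labelled WT over short genes other than tRNA genes, fewer than 1 would be called, so the count does not set the copies apart. Only uniquely mapped reads were used, so reads that match a gene and a near-identical copy would have been left out at both.

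Among genes with internal promoters, the vault RNA peaks were set beside the 254 peaks labelled HA at tRNA genes, whose transcription starts from an A box and a B box too. The median pileup of these peaks was 24 tags (quartiles 17 and 31) and their median fold enrichment 5.21 (3.87 and 7.35). VTRNA1-2 and VTRNA2-1, with 27 tags, were above 62.2% of the tRNA peaks by pileup, VTRNA1-3 above 77.2% and VTRNA1-1 above 18.5%. By fold enrichment VTRNA1-3 was above 99.6% of them, VTRNA1-2 above 94.9%, VTRNA2-1 above 81.5% and VTRNA1-1 above 38.6%, and the median background at the tRNA peaks was 3.49 tags, more than at any vault RNA gene. RNY4 and RNY1 were above 11.0% and 2.76% of the tRNA peaks by pileup, and above 7.09% and 1.18% by fold enrichment. The vault RNA values thus fell within the range of tRNA peaks, a comparison that leaves out tRNA genes without a peak. Of 443 tRNA genes, 256 (57.8%) had an overlapping peak labelled HA and 9 (2.03%) one labelled WT. More calls labelled HA than labelled WT were thus seen at tRNA genes as well as at the vault RNA genes. The 17 genes of 5S ribosomal RNA have an internal promoter of another kind, and BCYRN1 is the gene of the brain cytoplasmic RNA BC200. These genes had 0 peaks in either list, by overlap or within 500 bp. By that rule, the shares of 1.04% and 0.452% over short genes other than tRNA genes would also give 0. Reads that match several copies of a gene were not used, so the count at the 5S genes cannot tell absent signal from reads left out.

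**Figure D4:**
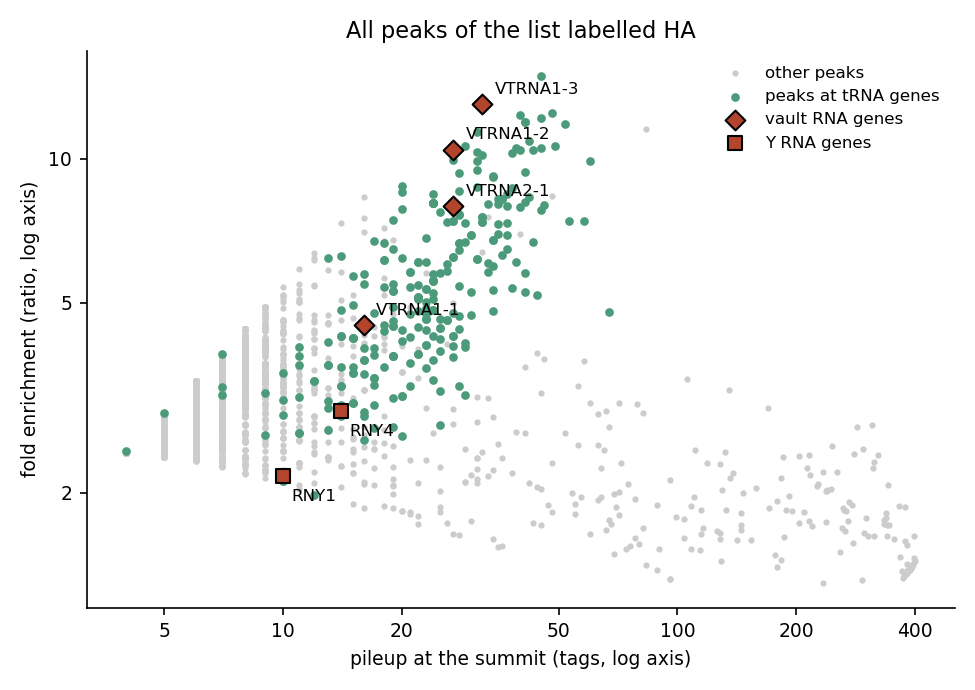
Fold enrichment (y, ratio, log axis) against pileup at the summit (x, tags, log axis) for all 12662 peaks labelled HA, with the 254 peaks at tRNA genes in green, vault RNA genes as diamonds and Y RNA genes as squares. VTRNA1-2, VTRNA1-3 and VTRNA2-1 lie among the upper tRNA peaks, VTRNA1-1 in their lower part, and RNY4 and RNY1 at their lower edge.

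The genes whose pair of pileups was nearest to that of the vault RNA genes were sought among 294 other short genes with a peak, over the 2 libraries, with the distance between the log2 values of the pileup per 10000000 tags plus 1. A gene without a peak entered as 0 by the rule, although its pileup is unknown and up to 3 tags labelled HA or 5 labelled WT can go uncalled at the genome-wide background. The vault RNA mean was 4.03 labelled HA and, with 3 of the 4 genes entered as 0, 0.67 labelled WT. Of the 294 genes, 87.1% were tRNA genes. The smallest distance, 0.67 on the log2 scale, was tied between 8 genes, all of them tRNA genes with 25 tags labelled HA and no peak labelled WT. In alphabetical order they began with TRA-AGC11-1, TRA-AGC5-1 and TRI-AAT5-4. The likeness rests on the same pileups by which the vault RNA genes were chosen and on a set made mostly of tRNA genes, so it is a description.

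Other genes with upstream promoters were read beside the Y RNA genes. The 6 RNU6 genes, which encode U6 and U6atac small nuclear RNA, had 0 peaks in either list, by overlap or within 500 bp. By that rule, the shares of 1.04% and 0.452% over short genes other than tRNA genes would also give 0. RN7SK, the RNA that holds the elongation factor P-TEFb in reserve, had 15 tags labelled HA and 92 labelled WT. RMRP, the RNA of the RNase MRP, had 16 and 34 tags. RPPH1, the RNA of RNase P, had no peak labelled HA and 39 tags labelled WT. Per 10000000 tags, RN7SK had 9.30 labelled HA and 41.3 labelled WT, against 8.68 at RNY4 and 6.20 at RNY1 labelled HA. In the list labelled HA the pileup of RNY4 per 10000000 tags was thus near that of RN7SK. The pileup of RNY1 was lower, and was the smallest that could be called at its background. The Y RNA genes lacked the peak labelled WT that RN7SK had. The likeness did not extend to fold enrichment labelled HA. It was 4.06 at RN7SK (−log10 q 2.49) and 3.79 at RMRP (2.25), against 2.96 at RNY4 (0.558) and 2.17 at RNY1 (0). These values of RN7SK and RMRP were nearer to those of VTRNA1-1, with 16 tags and a fold enrichment of 4.49. The background was 2.94 tags at RN7SK and 3.49 at RMRP, against 4.06 at RNY4 and RNY1. RN7SL1 and RN7SL2, genes of the signal recognition particle RNA with elements inside and upstream, had 108 and 75 tags labelled WT, and RN7SL1 had 18 tags labelled HA.

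Genes of proteins that bind or process these RNAs were read as a set chosen by function. Of 9 such genes, 0 held a peak labelled HA and 1, PUF60, a peak labelled WT. PUF60 encodes a splicing factor that also binds Ro ribonucleoproteins, and its peak had 8 tags and a fold enrichment of 3.20. The others were MVP, TEP1 and PARP4, which encode the proteins of the vault particle, RO60, SSB, NSUN2, DUSP11 and XPO5. Of 20037 protein-coding genes, 18.0% held a peak labelled HA and 8.58% a peak labelled WT. Among 26 genes of the RNA polymerase III machinery, 9 held a peak labelled HA and 2 a peak labelled WT. POLR3E, a subunit of the polymerase, had 21 tags (fold enrichment 4.90) and MAF1, its repressor, 17 tags (4.26), both labelled HA. SNAPC4, a subunit of the complex that binds the proximal sequence element, had 9 tags (4.71), and BRF1, the initiation factor of internal promoters, 9 tags (3.23). The remaining POLR3G, GTF3C4, POLR3F, POLR3B and GTF3C1 had 5 or 6 tags, which is at or next to the median of that list. The peaks labelled WT, at BRF1 and POLR3E, had 6 tags each, the lowest of that list. The genes with a peak are up to 152451 bp long (POLR3B), so a share over them depends on gene length.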

How the data were processed

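ChIP with an HA antibody was sequenced from K562 cells in 2 ChIP libraries, each with its input. The submitters' processing notes name BWA 0.7.12 and MACS2 2.1.0. Per the file headers, the authors called peaks with MACS 2.1.0.20150420 in each ChIP library alone, on uniquely mapped reads without duplicates, at a p-value cutoff of 0.005 with fixed tag extensions (201 bp labelled HA, 234 bp labelled WT) and splitting of summits. The signal the authors deposited is the pileup in tags, unscaled for depth. The deposited fold enrichment is a ratio with 1 added to pileup and background. The significance of each peak was deposited as −log10 of its p-value and of its q-value, and q-values are present although the headers state that none were calculated. The genome build was not given in the sources used here. Deposited positions and lengths are in bp.

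The background was computed from pileup and fold enrichment. The deposited p-value is the Poisson chance of more tags than the pileup, and was recovered for 100% of peaks within 0.05, which allowed the fewest tags for a call to be computed. Peaks were assigned to genes of RefSeq GRCh38.p14 by overlap of at least 1 bp or a distance of up to 500 bp. The peak with the highest pileup stood for a gene. Poisson intervals (95%) cover counting error only. The members, the lists and the motifs were chosen with earlier results of these data known. The genes named are the 8 members, every gene of the protein and RNA polymerase III lists with a peak, the genes at other peaks within 50 kb of a member, and the 3 nearest genes by their pair of pileups, ties in alphabetical order. Assignment and background were tested on simulated data. Alternatives were stricter thresholds, other distances, merged peaks, other scalings of the pileup and other backgrounds. The calculations ran in Python 3.11.15 with scipy 1.17.1, numpy 2.4.6 and pandas 2.3.3, and figures were drawn with matplotlib 3.10.9.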

Additional observations from a re-analysis of the deposited data

How the results depend on the processing

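The 4 of 4 vault RNA genes with a peak labelled HA stayed at 4 or, with a limit of 5 on −log10 q or on fold enrichment, became 3, since VTRNA1-1 has a −log10 q of 3.49 and a fold enrichment of 4.49. The 2 of 4 Y RNA genes labelled HA became 0 with a −log10 q of at least 5, a q-value under 0.05 or at least 5-fold enrichment, and 0 when each list was limited to its top 1000 peaks by −log10 q. The 1 vault RNA gene labelled WT became 0 under the same 3 limits on q and fold and stayed at 1 among the top 1000 peaks, and the 0 Y RNA genes labelled WT stayed at 0. With the summit within 100 bp, within 2 kb, by overlap alone and after merging, none of these 4 counts changed. With nothing added to pileup and background, 2 of 7 fold enrichments left the counting interval of the deposited value, VTRNA1-2 (16.1) and VTRNA1-3 labelled HA (20.8). With the genome-wide background 4 of 7 did, VTRNA1-1, VTRNA2-1, RNY1 and RNY4. No paired analysis was possible because each label has 1 ChIP library.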
